A study of Mus musculus with 19 samples.

Results

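The homeobox developmental genes described here are 72 protein-coding genes measured in mouse oocytes and early embryos and defined by their symbols: the numbered members of the Hoxa, Hoxb, Hoxc, Hoxd, Dlx, Lhx, Pax, Irx, Msx and Nkx families and 5 genes of the sine oculis family. Lhx8, which acts in the oocyte itself, was left out by the rule. The 72 genes stand among 25891 genes in the expression table, of which 17318 are protein coding. They comprise 34 Hox genes (10 Hoxa, 10 Hoxb, 6 Hoxc and 8 Hoxd), 8 Nkx, 6 Dlx, 6 Lhx, 6 Pax, 5 sine oculis, 4 Irx and 3 Msx genes. A further 18 mouse genes with matching symbols were not analysed here.

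Homeobox genes encode transcription factors that bind DNA through the homeodomain. The Pax genes are kept with them here by symbol, although Pax factors bind DNA through the paired domain and several of them lack a complete homeodomain. Hox genes lie in clusters, and their order along each cluster mirrors the order in which they are switched on along the body axis. Dlx and Msx factors act in limbs, face and neural crest, Lhx factors in neurons and the head organiser, Pax and sine oculis factors in eye, ear and kidney, Irx factors in heart and neural patterning, and Nkx factors in ventral neural tube, heart and endoderm. These are genes of later embryonic patterning, and in cell types that do not use them their CpG-rich promoters often carry Polycomb marks. In the mouse, the embryonic genome is first broadly transcribed at the 2cell stage.

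The study asked what the oocyte loses without CPEB3, a protein that binds the 3′ ends of mRNAs and regulates their polyadenylation and translation. RNA-seq was made from metaphase II (MII) oocytes and 2cell embryos of BL6 females aged 6 to 10 weeks, which received 5 IU PMSG and, 48 h later, 5 IU hCG. The embryos were taken 37 h after hCG. The methods describe a culture of zygotes and do not say whether these embryos were cultured from the zygote on. The labels give the genotypes as Het and KO. In the study's methods the KO females are CPEB3 LoxP/LoxP; ZP3 Cre+/-, with Cre driven by the ZP3 promoter of the growing oocyte. For the control the study's text differs: its methods define a WT genotype as CPEB3 LoxP/-; ZP3 Cre+/- or CPEB3+/+, and its account of the RNA-seq names CPEB3+/- oocytes, so the genotype behind the label Het is not settled here. In its work on embryos the KO females were mated with WT males, so that the deletion is maternal. Het MII, KO MII and Het 2cell have 5 libraries each (A to E) and KO 2cell has 4 (A to D), each made from 5 cells according to the methods. The methods speak of quadruplicates, and the numbers of libraries here are those of the labels. Nothing in the labels says that the libraries of a group came from separate animals, so the p-values below measure only the spread between these samples.

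Values are FPKM, fragments per kilobase of transcript scaled to the depth of the library, as the authors deposited them. The steps between low values put the depth at an estimated 17.1 to 23.5 M fragments a library (M for 10 to the power of 6), at which 0.1 FPKM of a homeobox gene of median length is about 5.42 fragments. The targeted gene was checked first. Cpeb3 was higher, not lower, in the libraries labelled KO, at 0.162 ± 0.0325 against 0.0755 ± 0.0240 FPKM in MII oocytes (SD, n = 5 and 5, two-sided exact permutation p = 0.00794) and 0.0554 ± 0.0129 against 0.0303 ± 0.0149 FPKM in 2cell embryos (SD, n = 4 and 5, two-sided exact permutation p = 0.0476). A value over the whole gene includes reads outside any deleted part and does not check the labels, so every direction below is between libraries as labelled. Both stages carried their markers: 9 oocyte markers summed to 559 to 939 FPKM in MII oocytes and 7 markers of the 2cell stage to 398 to 605 FPKM in 2cell embryos. Markers of cumulus and granulosa cells (10 of 14 in the table) summed to 0.382 to 1.40 FPKM over the 19 libraries.

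The promoters of 5 genes are shown because these genes carry results that follow: Hoxd13 was called higher in KO oocytes, and Hoxd10, Hoxd8, Msx1 and Irx2 in KO 2cell embryos. Each line gives 200 bases before the RefSeq start of the gene, 5′ to 3′ on its own strand, build GRCm38, with every CG dinucleotide in capitals. None of these windows overlaps an annotated exon. They lie at chr2:74668025-74668224 for Hoxd13, chr2:74691691-74691890 for Hoxd10 and chr2:74704415-74704614 for Hoxd8, all on the plus strand, at chr5:37824586-37824785 on the minus strand for Msx1, and at chr13:72628620-72628819 on the plus strand for Irx2.
Hoxd13: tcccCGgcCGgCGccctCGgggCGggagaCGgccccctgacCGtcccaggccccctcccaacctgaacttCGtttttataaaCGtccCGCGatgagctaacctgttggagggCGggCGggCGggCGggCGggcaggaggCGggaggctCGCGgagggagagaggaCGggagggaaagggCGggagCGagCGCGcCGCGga
Hoxd10: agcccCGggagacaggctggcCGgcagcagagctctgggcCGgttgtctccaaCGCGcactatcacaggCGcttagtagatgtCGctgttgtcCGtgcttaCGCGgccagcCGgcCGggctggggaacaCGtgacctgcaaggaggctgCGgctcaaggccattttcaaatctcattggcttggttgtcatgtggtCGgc
Hoxd8: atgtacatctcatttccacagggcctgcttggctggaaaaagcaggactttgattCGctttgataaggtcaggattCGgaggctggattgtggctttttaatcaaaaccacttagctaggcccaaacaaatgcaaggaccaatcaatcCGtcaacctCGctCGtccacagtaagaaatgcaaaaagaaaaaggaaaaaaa
Msx1: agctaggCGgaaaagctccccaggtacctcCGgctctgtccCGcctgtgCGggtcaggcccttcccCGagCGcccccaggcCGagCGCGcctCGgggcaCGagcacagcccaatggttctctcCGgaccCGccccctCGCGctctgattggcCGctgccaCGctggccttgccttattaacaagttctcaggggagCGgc
Irx2: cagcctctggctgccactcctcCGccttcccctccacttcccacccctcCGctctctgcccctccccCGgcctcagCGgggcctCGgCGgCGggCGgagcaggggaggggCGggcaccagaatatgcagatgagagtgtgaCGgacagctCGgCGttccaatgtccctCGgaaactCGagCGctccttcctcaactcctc
The CG dinucleotides number 26 in the Hoxd13 window, 15 in Hoxd10, 5 in Hoxd8, 18 in Msx1 and 15 in Irx2, so that Hoxd8 has the fewest of the 5. RefSeq promoters were matched for 48 of the 72 genes. Over the 250 bases before the start, these held a median of 14 CG dinucleotides (range 2 to 35), against a median of 6 over 27025 genes. The 13 matched genes that were called higher in KO 2cell embryos had a median of 20 and the other 35 a median of 14. Read on both strands of the same windows, TATAAA was found in 6.25% of the homeobox promoters and 13.0% of all promoters, CCAAT in 54.2% and 34.5%, and GGGCGG in 52.1% and 32.9%. A match of letters describes the window and shows no binding.

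In MII oocytes the values of these genes were low, apart from Hoxa7. The libraries were made from captured mRNA, and whether the length of poly(A) tails bears on the values was not tested. Between 5 and 8 of the 72 genes reached 0.1 FPKM in a Het library and between 8 and 12 in a KO library, and 16 were at 0 in all 10 oocyte libraries, Dlx3, Hoxc9 and Hoxb13 among them. Hoxa7 (chr6:52214491-52221854, minus strand), a gene of trunk patterning, made up most of the sum. Its FPKM was 10.8, 10.7, 10.1, 10.4 and 13.2 in Het MII A to E and 11.6, 16.6, 13.5, 13.7 and 13.1 in KO MII A to E. KO libraries were mostly higher but the groups overlapped, and the difference of 0.21 ± 0.11 (SE) on the log2(FPKM + 0.1) scale did not pass the test (adjusted p = 0.206). An antisense gene, Hoxaas3, overlaps Hoxa7, and the counting was not stated to use strand, so their reads cannot be told apart. Exons of 25 of the 72 genes overlap those of another gene, 18 on the opposite strand, Hoxb2, Lhx5, Nkx6-2 and Irx3 among them, and their values have the same limit.

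**Figure D1:**
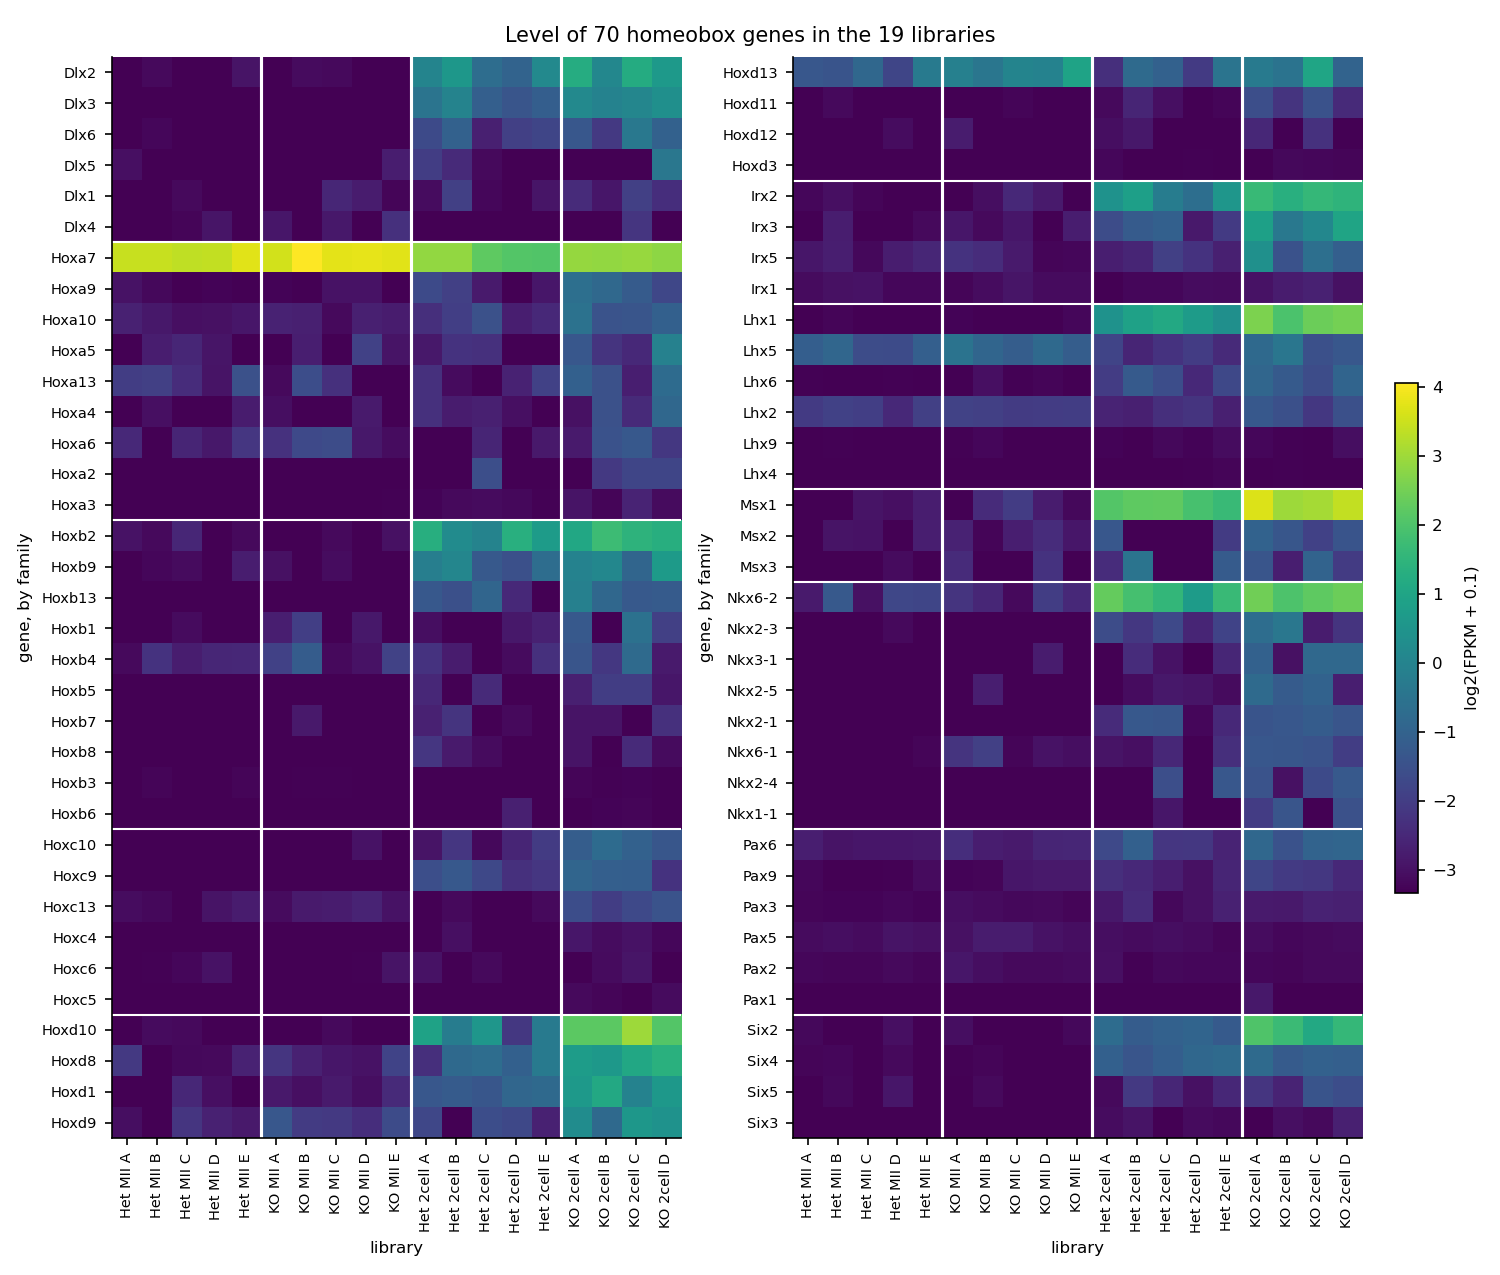
Level of 70 of the 72 genes (rows, by family) in each of the 19 libraries (columns), as log2(FPKM + 0.1), with white lines between groups and families. Hoxa7 is bright in every library, most other genes are dark in the 10 MII libraries, and Hoxd10, Six2 and Lhx1 are brightest in the 4 KO 2cell libraries at the right of each panel.

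Only 8 of the 72 genes passed the filter of 0.1 FPKM in at least 5 MII libraries and were tested between genotypes, Hoxa7, Hoxa13, Hoxd9, Hoxd13, Lhx2, Lhx5 and Nkx6-2 among them. A gene was called where the adjusted p of limma, fitted over all genes, was below 0.05 and the fold above 1.5. Hoxd13 and Hoxd9 were called higher in KO, where 5.59% of the 10515 genes tested were. With no filter, 0 of 56 genes were called, where 1.79% of all genes were called higher and 2.71% lower. Neither gene was called with all 19 libraries in 1 fit or with a constant of 1. By limma none of the 8 was called lower (0 at an unadjusted p under 0.05), where 7.29% of all genes were.

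Hoxd13 (chr2:74668310-74671599, plus strand), at the end of its cluster and a factor of digits and genital tubercle, stood at 0.297, 0.276, 0.449, 0.192 and 0.730 FPKM in Het MII A to E. In KO MII A to E it stood at 0.826, 0.646, 0.900, 0.869 and 1.85 FPKM. Het E reached into the range of the KO libraries, above KO B, and KO E was the highest. The mean was 1.02 ± 0.474 FPKM in KO and 0.389 ± 0.212 FPKM in Het (SD, n = 5 and 5), a difference of 1.12 ± 0.32 (SE) on the log2(FPKM + 0.1) scale (limma, adjusted p = 0.0326).

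Hoxd9 (chr2:74697727-74700208, plus strand), a gene of the trunk and proximal limb, was lower still. Its FPKM was 0.0197, 0, 0.119, 0.0588 and 0.0412 in Het MII A to E and 0.300, 0.143, 0.133, 0.0959 and 0.221 in KO MII A to E. KO D lay below Het C, and the other KO libraries lay above all Het libraries. The difference was 0.86 ± 0.25 (SE, log2 scale, adjusted p = 0.0343). Of the 5 libraries through which it passed the filter, 4 were KO, which favoured this direction. Neither call held in every fit that dropped a single library: Hoxd13 lost its call without Het A, Het B, Het D, KO C or KO E (highest adjusted p 0.0752), and Hoxd9 lost it without any library other than Het C or KO D (highest adjusted p 0.0864).

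The 72 genes together summed to 12.1 to 15.9 FPKM in Het MII and 15.3 to 20.2 FPKM in KO MII, where the groups overlapped and the means stood in a ratio of 1.31. Without Hoxa7, the other 71 genes summed to 1.71, 2.13, 2.13, 1.68 and 2.69 FPKM in Het MII A to E and 3.67, 3.63, 2.95, 3.28 and 3.91 FPKM in KO MII A to E. For this sum all KO oocyte libraries lay above all Het oocyte libraries, with means in a ratio of 1.69. The 8 Hoxd genes summed to 0.513 ± 0.234 FPKM in Het and 1.34 ± 0.581 FPKM in KO (SD, n = 5 and 5). The sums of Hoxd and Pax did not overlap between genotypes in MII oocytes, and those of the other families did. For 0 of the 72 single genes did all KO libraries lie above all Het libraries, where 5.37% of all genes with a value above 0 did so. In such bulk samples, more RNA per cell and more cells that hold the RNA cannot be told apart.

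Between MII and the 2cell stage, most of the genes that passed the filter rose from near 0, and most of them passed only because of their 2cell levels. In the libraries labelled Het, 27 of the 44 genes that passed the filter over all 19 libraries were called higher in 2cell embryos and 2 lower, where 38.2% of the 15786 genes tested were called higher and 28.2% lower. In the libraries labelled KO, 37 were called higher and 1 lower, where 38.2% and 27.0% of all genes were. Of the 44 genes, 34 reached 0.1 FPKM in fewer than 4 MII libraries and were tested only through their 2cell libraries, so a rise was favoured for them. Of these, 25 were called higher in Het, where 75.1% of all genes that passed in this way were, a like share, and 33 in KO, where 75.8% were. Of the 10 that passed on MII libraries, 2 were called higher and 2 lower in Het, and 4 and 1 in KO, where 22.2% and 21.8% of all such genes were called higher. The genes with a mean of at least 1 FPKM numbered 1 in Het MII, 2 in KO MII, 7 in Het 2cell and 16 in KO 2cell. The scaling of whole libraries bears on stage comparisons, and 23 of the 29 Het calls and 31 of the 38 KO calls were made under each of the 4 scalings tried. With quantile scaling, 21 genes were called higher and 6 lower in Het, and 30 and 2 in KO, where 27.9% and 39.5% of all genes were in Het and 27.8% and 39.2% in KO. Hoxa10, called higher in Het 2cell embryos than in Het oocytes, had a difference below 0 with quantile scaling.

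Msx1 (chr5:37820485-37824583, minus strand), a factor of craniofacial and limb mesenchyme, had the largest rise in Het. Its FPKM was 0, 0, 0.0309, 0.0237 and 0.0499 in Het MII A to E and 4.16, 4.61, 4.68, 3.65 and 3.10 in Het 2cell A to E. The 2cell libraries were all far above the oocytes, by 5.00 ± 0.22 (SE) on the log2(FPKM + 0.1) scale (adjusted p = 4.29e-13). Lhx1, a LIM factor of the head organiser and kidney, rose by 3.94 ± 0.14 (adjusted p = 1.61e-14). Msx1 and Lhx1 are among the 34 genes tested only through their 2cell libraries, so that the direction of their change was favoured by the filter.

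Among the next largest in Het, Hoxb2, a gene of the hindbrain, rose by 3.62 ± 0.25, Nkx6-2, a neural tube factor, by 3.61 ± 0.32 and Irx2 by 3.32 ± 0.23 (SE, log2 scale). Dlx2 and Dlx3, distal-less factors of forebrain and face, rose by 2.95 ± 0.26 and 2.44 ± 0.19, Hoxd10 by 2.94 ± 0.37 and Hoxb9 by 2.35 ± 0.30 (highest adjusted p of the 7 genes 1.12e-06). In each of these 7 genes every MII library lay below every 2cell library, and all but Nkx6-2 were likewise tested only through their 2cell libraries. Dlx3 was at 0 in all oocyte libraries and at 0.284 to 0.886 FPKM in Het 2cell embryos. These log2 values depend on the constant of 0.1 added to values near 0. Red blood cell markers rose between the same stages: Hba-a1 and Hba-a2, near-identical haemoglobin genes and the 2 of 6 listed that are in the table, summed to 0.0512 to 0.428 FPKM in MII libraries and 46.2 to 146 FPKM in 2cell libraries, with a median change of 7.22 in Het and 7.32 in KO on the log2 scale, and both were called higher. Their part in the stage differences was not tested.

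Hoxa7 and Lhx5 went the other way. Hoxa7 was at 7.20, 7.19, 4.56, 4.15 and 4.10 FPKM in Het 2cell A to E and 7.37, 7.17, 7.44 and 6.85 FPKM in KO 2cell A to D, all below every oocyte library. Its change from MII was -1.28 ± 0.16 in Het and -1.06 ± 0.17 in KO (SE, log2 scale, adjusted p = 7.97e-07 and 1.68e-05). Lhx5, a forebrain LIM factor, had means of 0.326 FPKM in Het MII and 0.120 FPKM in Het 2cell, a change of -1.10 ± 0.21 (adjusted p = 0.000126). In KO its means were 0.445 and 0.416 FPKM (adjusted p = 0.341).

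**Figure D2:**
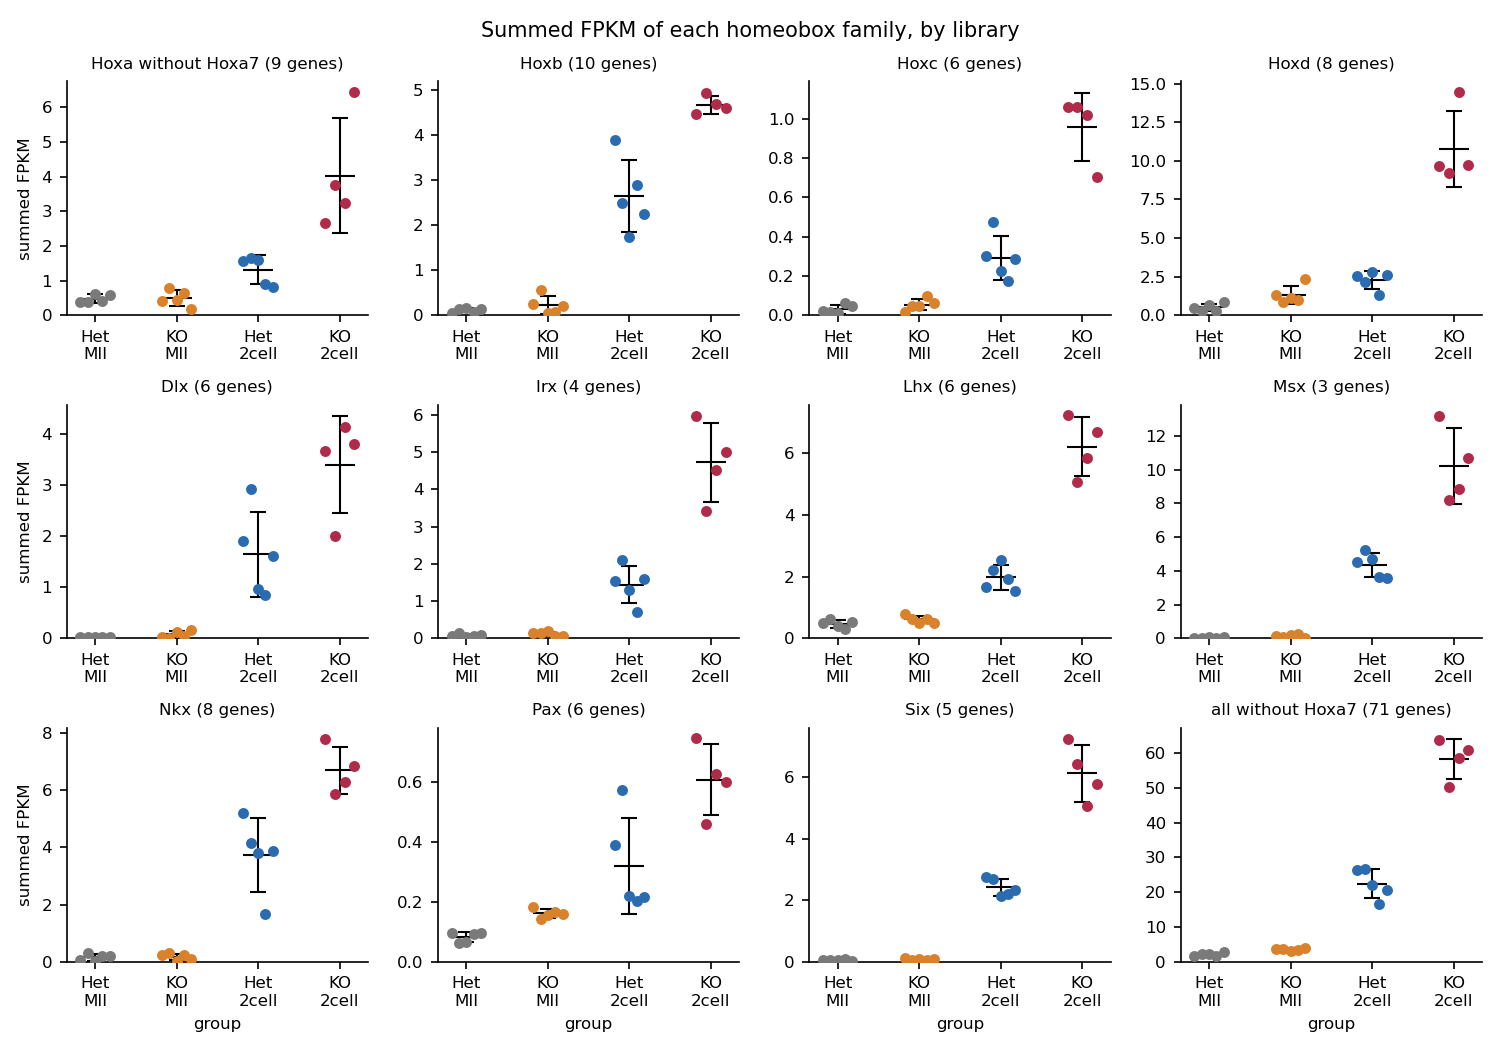
Summed FPKM of each family in every library (points), with the mean and SD of each group (lines and bars), on a linear axis of its own in each panel. The KO 2cell libraries lie above all Het 2cell libraries in every panel but Dlx and Pax, and for the 71 genes without Hoxa7 they lie at 50.4 to 63.7 FPKM against 16.5 to 26.6 FPKM.

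In 2cell embryos the homeobox genes stood higher in the libraries labelled KO, across most families. The 72 genes summed to 33.5, 33.8, 26.6, 20.7 and 24.8 FPKM in Het 2cell A to E and 71.0, 57.5, 66.1 and 67.7 FPKM in KO 2cell A to D. No KO library came near a Het library, and the means stood in a ratio of 2.35. The ratio of the sums was 4.71 for Hoxd, 3.29 for Hoxc, 3.26 for Irx, 3.13 for Lhx, 3.06 for Hoxa without Hoxa7 (1.66 with it), 2.53 for the sine oculis genes, 2.36 for Msx, 1.79 for Nkx and 1.76 for Hoxb, and for all of these the KO libraries lay above all Het libraries. Dlx and Pax had ratios of 2.06 and 1.90 with libraries that overlapped. These sums are descriptions, with no test.

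The number of genes above the lowest levels differed too. Between 24 and 33 of the 72 genes reached 0.1 FPKM in a Het 2cell library and between 46 and 49 in a KO 2cell library. The mean was higher in KO for 67 of the 72 genes. The other 5, Hoxb6, Hoxb8, Lhx4, Pax2 and Pax5, had means of at most 0.0379 FPKM in both groups. All 4 KO libraries lay above all 5 Het libraries for 21 of the 72 genes and below them for 0, where 7.57% of all genes with a value above 0 had all KO libraries above and 5.93% had them below. These counts took every gene, with no filter on low values. Hoxb3, 1 of the 21, was at or below 0.00773 FPKM in all 2cell libraries, so that its order rests on traces of signal.

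Of the 72 genes, 42 passed the filter of 0.1 FPKM in at least 4 of the 9 libraries. In the limma fit over all genes, 18 were called higher in KO, where 8.53% of the 14051 genes tested were. By limma none was called lower (0 at an unadjusted p under 0.05), where 9.54% of all genes were. Only 9 of the 18 calls are free of the filter's own direction: 23 of the 42 genes passed on the Het libraries alone, and 9 of these were called, where 7.81% of all such genes were. The other 9 calls, Hoxa10, Hoxa9, Hoxc10, Hoxc13, Hoxd9, Irx5, Lhx2, Lhx5 and Nkx6-1, are of genes that passed only through the KO libraries, the group where they are high. There were 12 such genes, and 34.4% of all genes that passed in this way were called higher. None of the 7 that passed on both groups together was called (0), where 0.274% of all such genes were called higher. In a fit of all genes with no filter, 17 of the 72 genes were called, all higher, where 3.33% of all genes were, and 15 of these are among the 18. Hoxa9 and Hoxa10 lost their calls there, and Hoxd11 and Nkx2-5 gained one. In that fit, 65 of the 72 genes had a positive difference, with a median of 0.70 on the log2(FPKM + 0.1) scale against 0.00384 over all genes.

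**Figure D3:**
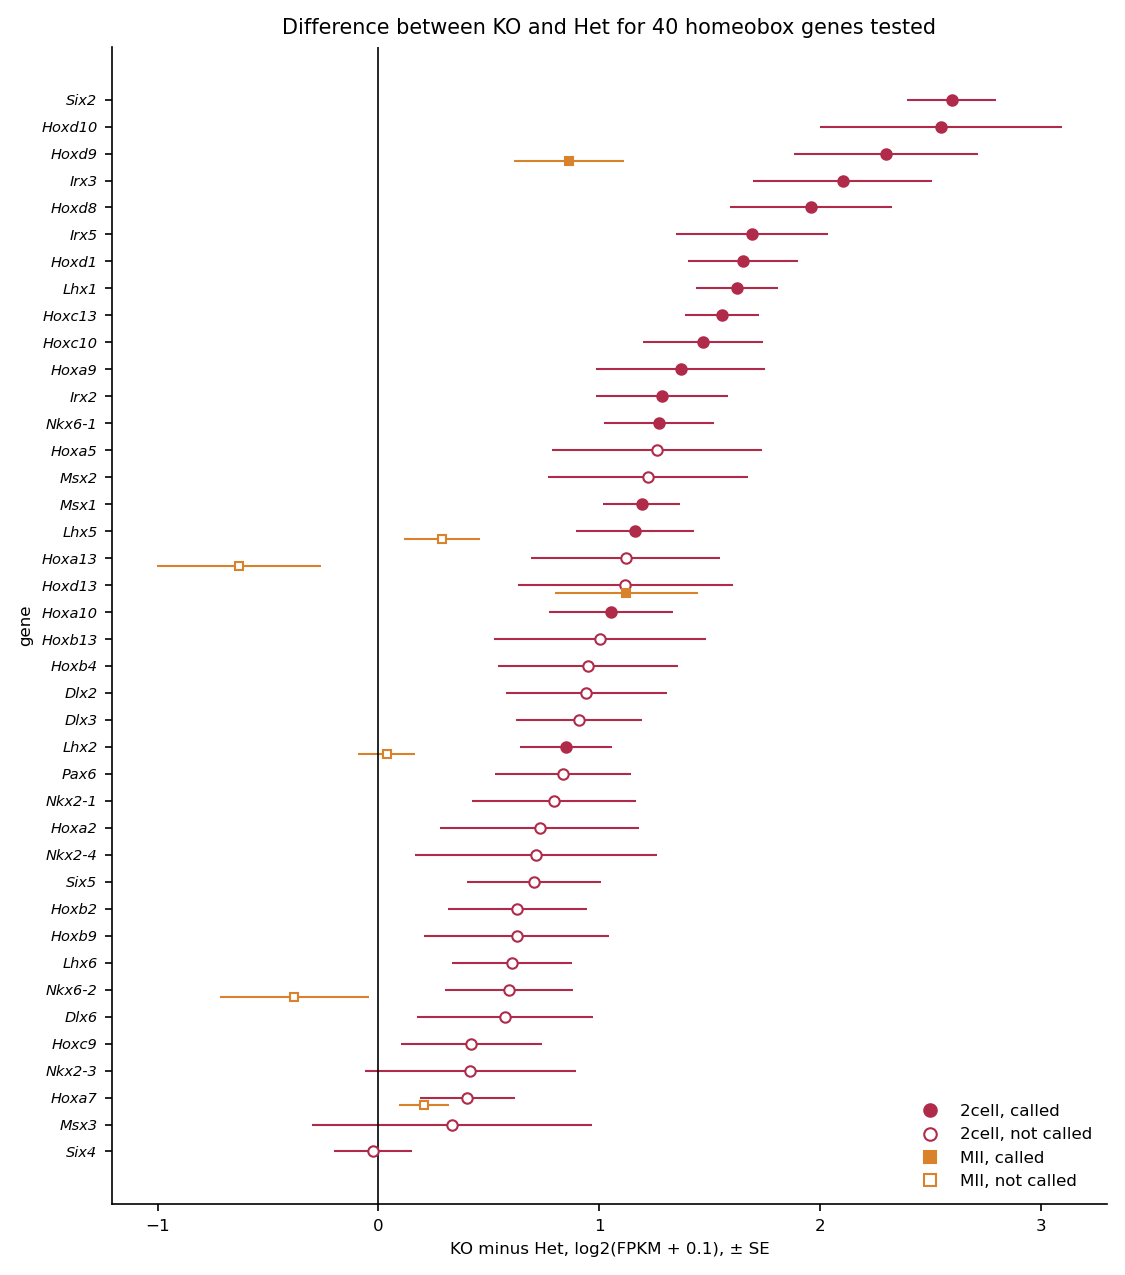
Difference between KO and Het on the log2(FPKM + 0.1) scale (points) with its SE (bars) for 40 of the 42 genes tested in 2cell embryos (circles) and 7 of the 8 tested in MII oocytes (squares). Filled symbols passed the test, 17 of the circles and 2 of the squares, and every circle but that of Six4 lies above 0.

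Six2, which keeps nephron progenitors undifferentiated, had the smallest adjusted p. Its FPKM (chr17:85684277-85688274, minus strand) was 0.514, 0.339, 0.392, 0.418 and 0.322 in Het 2cell A to E and 3.96, 3.15, 2.10 and 2.94 in KO 2cell A to D. The lowest KO library was well above the highest Het library. The means were 3.04 ± 0.764 and 0.397 ± 0.0763 FPKM (SD, n = 4 and 5), a ratio of 7.66, and the difference was 2.60 ± 0.20 (SE, log2 scale, limma, adjusted p = 0.000703). Six4 had means of 0.394 and 0.393 FPKM and a difference of -0.02 ± 0.18 (adjusted p = 0.944).

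Among the LIM factors, Lhx1 (chr11:84518284-84525535, minus strand) was the highest. Its FPKM was 1.25, 1.76, 2.08, 1.57 and 1.18 in Het 2cell A to E and 5.98, 3.82, 5.23 and 5.68 in KO 2cell A to D. The groups were well apart, with a ratio of means of 3.30 and a difference of 1.63 ± 0.19 (SE, log2 scale, adjusted p = 0.00125). Lhx5 lay at 0.249 to 0.639 FPKM in KO against 0.0711 to 0.187 FPKM in Het and was called higher (adjusted p = 0.0159). Lhx2, a factor of forebrain and eye field, lay at 0.131 to 0.310 against 0.0565 to 0.118 FPKM and was called higher too (adjusted p = 0.0199). Lhx6, at 0.229 to 0.436 against 0.0806 to 0.328 FPKM, was not called (adjusted p = 0.145), and Lhx4 and Lhx9 did not pass the filter.

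Msx1 was 12.5, 7.85, 8.25 and 10.3 FPKM in KO 2cell A to D, with the highest value of any of the 72 genes there. The lowest of these was still above the highest Het library, and the difference was 1.19 ± 0.17 (SE, log2 scale, adjusted p = 0.00294). Its paralogues Msx2 and Msx3 had differences of 1.22 ± 0.45 and 0.33 ± 0.63, neither of which passed the test (adjusted p = 0.0869 and 0.753).

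Of the Iroquois genes, Irx2, Irx3 and Irx5 were called higher, and Irx1, which did not pass the filter, had all KO libraries above all Het libraries. Irx3 (chr8:91798525-91802067, minus strand) was 0.229, 0.338, 0.376, 0.0429 and 0.140 FPKM in Het 2cell A to E and 1.73, 0.669, 0.964 and 1.90 FPKM in KO 2cell A to D. There was no overlap, with a difference of 2.10 ± 0.41 (SE, log2 scale, adjusted p = 0.00793), though an antisense gene, Irx3os, overlaps it. Irx5 was 1.20, 0.260, 0.546 and 0.371 FPKM in KO A to D against 0.0551 to 0.162 FPKM in Het, a difference of 1.69 ± 0.34 (adjusted p = 0.00970). Irx2, the highest of the family, had means of 2.77 ± 0.263 and 1.12 ± 0.468 FPKM (SD, n = 4 and 5) and a difference of 1.28 ± 0.30 (adjusted p = 0.0165).

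The 8 genes of the Hoxd cluster had the largest ratio of sums. Hoxd10 (chr2:74691924-74695105, plus strand), a gene of lumbar and limb patterning, was 1.80, 0.753, 1.37, 0.127 and 0.731 FPKM in Het 2cell A to E and 4.48, 4.47, 7.83 and 4.10 FPKM in KO 2cell A to D. All KO libraries were above all Het libraries, KO C was the highest and Het D the lowest. The difference was 2.55 ± 0.55 (SE, log2 scale, adjusted p = 0.0120), and it was 2.33 without KO C (adjusted p = 0.0381) and 2.07 without Het D (adjusted p = 0.00793). A predicted gene, Gm28309, shares exon sequence with Hoxd10 on the same strand, so that reads could be split between them.

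Hoxd9, Hoxd8 and Hoxd1 were also called higher in KO 2cell embryos. Hoxd9 was 0.196, 0, 0.234, 0.204 and 0.0598 FPKM in Het A to E and 1.11, 0.477, 1.40 and 1.25 FPKM in KO A to D, a difference of 2.30 ± 0.42 (SE, log2 scale, adjusted p = 0.00669). Hoxd8 (chr2:74704615-74707933, plus strand) was 0.0978, 0.471, 0.524, 0.382 and 0.705 FPKM in Het A to E and 1.58, 1.44, 2.04 and 2.45 FPKM in KO A to D, a difference of 1.96 ± 0.37 (adjusted p = 0.00736). Hoxd1 (chr2:74762980-74765142, plus strand), at the opposite end of the cluster from Hoxd13, was 0.295 to 0.480 FPKM in Het and 0.857 to 2.09 FPKM in KO, a difference of 1.65 ± 0.25 (adjusted p = 0.00329). None of the 3 overlapped between genotypes. Hoxd13, called in oocytes, was 0.0987 to 0.616 FPKM in Het and 0.409 to 1.94 FPKM in KO at the 2cell stage, with overlap, and its difference of 1.12 ± 0.49 did not pass (adjusted p = 0.138). Hoxd11 had all KO libraries above all Het libraries. It did not pass the filter and was called higher in the fit with no filter. Hoxd3 and Hoxd12 stayed at or below 0.108 FPKM in all 2cell libraries.

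**Figure D4:**
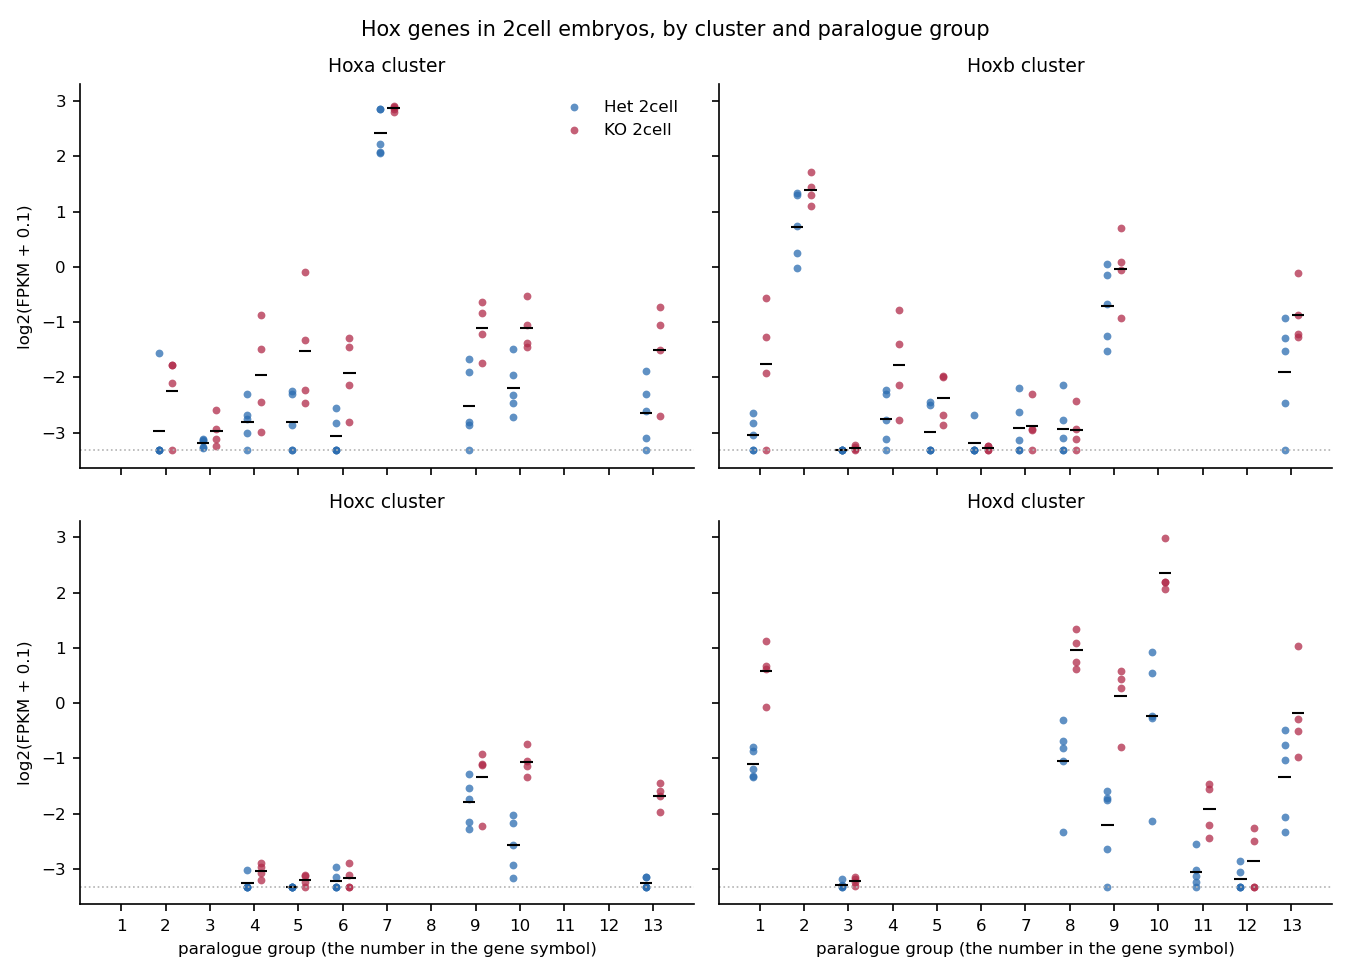
Level of 33 of the 34 Hox genes in 2cell embryos as log2(FPKM + 0.1), by cluster and by paralogue group, the number in the gene symbol, with a point for each library (Het left, KO right), a line at the group mean and a dotted line at 0 FPKM. In the Hoxd cluster the KO libraries lie apart from the Het libraries at groups 1, 8, 9, 10 and 11, and Hoxa7 is the highest gene of its cluster in both groups.

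In the Hoxc cluster, Hoxc10 and Hoxc13 were called. Hoxc10 was 0.0318, 0.123, 0.0114, 0.0696 and 0.146 FPKM in Het 2cell A to E and 0.352, 0.497, 0.386 and 0.295 FPKM in KO 2cell A to D, with no overlap and a difference of 1.47 ± 0.27 (SE, log2 scale, adjusted p = 0.00693). In the annotation Hoxc5 shares exon sequence with it. Hoxc13, a gene of hair and nails, was 0, 0.0135, 0, 0 and 0.0128 FPKM in Het A to E against 0.233, 0.154, 0.210 and 0.269 FPKM in KO A to D. The Het level is about 0.253 fragments a library, so no fold is given. No Het library reached 0.1 FPKM, so the gene was tested through KO alone, with its direction fixed by the filter, and its difference on the log2(FPKM + 0.1) scale was 1.56 ± 0.17 (adjusted p = 0.00116). Hoxc9 was 0.105 to 0.313 FPKM in Het and 0.114 to 0.426 FPKM in KO and did not pass (adjusted p = 0.385).

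In the Hoxa cluster, Hoxa10 and Hoxa9 were called. Hoxa10 was 0.0531 to 0.258 FPKM in Het and 0.268 to 0.592 FPKM in KO with no overlap, and was called higher by 1.05 ± 0.28 (SE, log2 scale, adjusted p = 0.0281). Hoxa9, at 0 to 0.214 and 0.198 to 0.546 FPKM, overlapped and was called higher by 1.37 ± 0.38 (adjusted p = 0.0331). Hoxa7, with a difference of 0.40 ± 0.22, did not pass (adjusted p = 0.219). No Hoxb gene was called, and the highest, Hoxb2, had means of 2.57 ± 0.491 and 1.67 ± 0.717 FPKM (SD, n = 4 and 5) and overlapped (adjusted p = 0.190).

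Of the 8 Nkx genes, Nkx6-1, a factor of motor neuron progenitors and beta cells, was called, and it too passed the filter through KO alone. It was 0.0316, 0.0228, 0.0761, 0 and 0.101 FPKM in Het 2cell A to E and 0.300, 0.291, 0.270 and 0.151 FPKM in KO 2cell A to D, with no overlap and a difference of 1.27 ± 0.25 (SE, log2 scale, adjusted p = 0.00853). Nkx6-2, the highest of the family, was 1.55 to 4.87 FPKM in Het and 3.93 to 5.39 FPKM in KO and did not pass (adjusted p = 0.179). Nkx2-5, the cardiac factor, lay at 0.0535 to 0.491 FPKM in KO against 0 to 0.0400 FPKM in Het. It did not pass the filter and was called higher in the fit with no filter.

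No Dlx or Pax gene was called. Dlx3 lay at 0.864 to 1.19 FPKM in KO against 0.284 to 0.886 FPKM in Het, with a difference of 0.91 ± 0.29 (SE, log2 scale, adjusted p = 0.0512). Dlx2 and Pax6, the eye field gene, had differences of 0.94 ± 0.37 and 0.84 ± 0.31 (adjusted p = 0.0984 and 0.0838). Pax1, Pax2, Pax3, Pax5 and Pax9 did not pass the filter.

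Dropping single libraries left 14 of the 18 calls in place in each of the 9 fits. Among the 14, Hoxc10, Hoxc13, Hoxd9, Irx5, Lhx5 and Nkx6-1 had passed the filter only through the KO libraries. Hoxa10 lost its call without Het D, Het E, KO A or KO D (highest adjusted p 0.0793), and Lhx2 without KO A, KO B or KO D (highest adjusted p 0.0624). Hoxa9 kept its call without Het A, Het B or KO D only (highest adjusted p 0.0910).

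Whether the change from oocyte to embryo differed between genotypes was tested as an interaction in 1 fit of the 19 libraries. Of the 44 genes tested, 10 were called, all towards higher 2cell levels in KO, where 3.62% of all genes tested were. Hoxa9, Hoxc10, Hoxc13 and Irx5 passed the filter only with the KO 2cell libraries, which favoured this direction. Of the 29 genes that passed without those libraries, 6 were called, where 3.02% of all such genes were. With no filter, 10 were called, where 1.74% of all genes were, 8 of them among the 10, and Hoxa9 and Lhx2 lost their calls. None was called the other way by limma (0 at an unadjusted p under 0.05), where 4.14% of all genes were. The difference of the differences, on the log2 scale with its SE, was 2.60 ± 0.22 for Six2, 2.58 ± 0.55 for Hoxd10, 1.90 ± 0.43 for Irx3, 1.66 ± 0.41 for Irx5, 1.60 ± 0.20 for Lhx1, 1.39 ± 0.33 for Hoxd1, 1.36 ± 0.27 for Hoxc10, 1.31 ± 0.38 for Hoxa9, 1.28 ± 0.20 for Hoxc13 and 0.80 ± 0.23 for Lhx2, with adjusted p from 3.58e-06 for Six2 to 0.0438 for Hoxa9. In MII oocytes, Six2 had means of 0.00731 FPKM in Het and 0.00667 FPKM in KO, and Hoxd10 0.00566 and 0.00295 FPKM. Hoxd9 and Msx1, called higher in KO 2cell embryos, did not pass the interaction (adjusted p = 0.0946 and 0.104). Hoxa9 and Lhx2 lost the interaction in 16 and 13 of the 19 fits without a library, among them those without KO MII B, Het 2cell E or KO 2cell A (highest adjusted p 0.0854 and 0.0748). This fit uses the same 2cell libraries as the comparison between genotypes and is not independent of it. Of the 10 genes called, only Lhx2 passed the filter in MII oocytes. The others were mostly below 0.1 FPKM there in both genotypes, so their interaction largely restates the 2cell difference.

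GC content moved with the difference between genotypes. Across the genes tested, Pearson's r between the log2 difference and the GC content of the transcript was 0.315 in MII oocytes and 0.361 in 2cell embryos, over genes, which are not independent replicates. The median GC content was 54.6% for the 42 homeobox genes tested in 2cell embryos and 48.6% for all genes tested. After each library's trend with GC was removed, 12 of the 42 were called higher, where 6.07% of all genes were. Hoxa9, Hoxc10, Hoxc13, Hoxd1, Hoxd10, Hoxd8, Hoxd9, Irx3, Lhx1, Msx1, Nkx6-1 and Six2 kept their calls. Of the 23 genes that passed the filter on the Het libraries alone, 7 were called after the correction, where 5.78% of all such genes were, and of the 12 that passed only through KO, 5 were, where 20.3% of such genes were. The other 6 of the 18 calls were lost, Irx5, Hoxa10 and Irx2 among them, with adjusted p of up to 0.142 for Lhx2. Hoxd10, with 46.5% GC, had a difference of 2.63 after the correction and 2.55 before it, and Nkx6-2, with 64.3%, 0.03 after and 0.59 before. In MII oocytes Hoxd13 kept its call (adjusted p = 0.0306) and Hoxd9 lost it (adjusted p = 0.161).

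**Figure D5:**
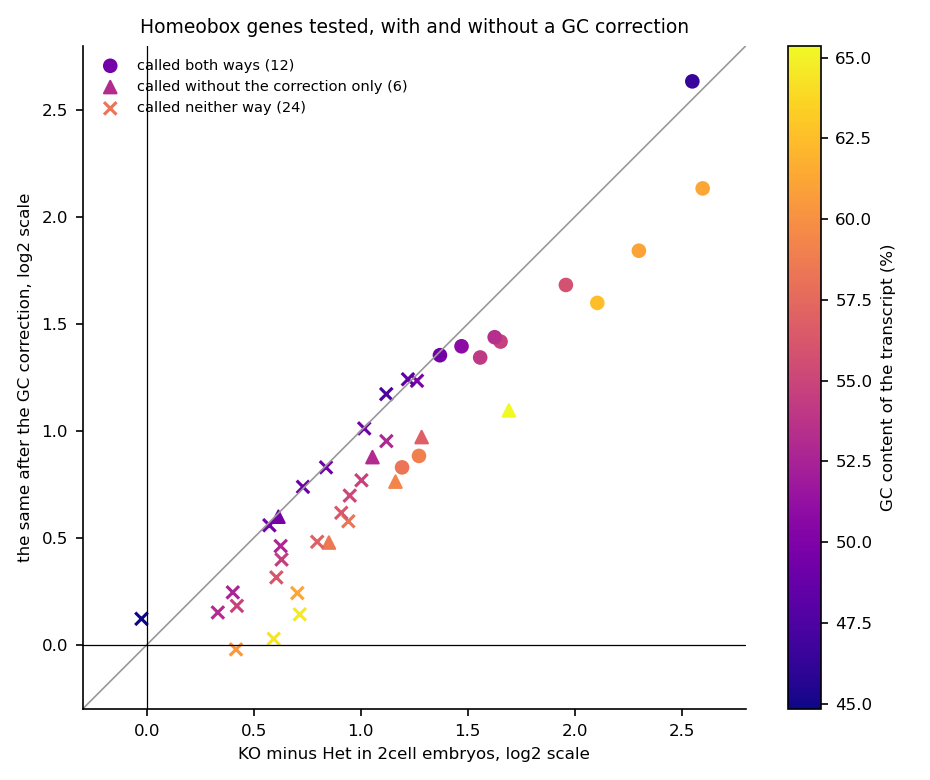
Difference between KO and Het in 2cell embryos (log2 scale) for the 42 genes tested, as fitted (horizontal axis) and after the GC trend was removed (vertical axis), coloured by the GC content of the transcript, with a grey line at equality. The 12 genes called both ways (circles) include Six2 and Hoxd10, 6 (triangles) were called without the correction only, 24 (crosses) neither way, and the points farthest below the line are rich in GC.

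Partners and regulators of these factors were read against the same background, in which 8.53% of all genes tested in 2cell embryos were called higher in KO and 9.54% lower. Of the 9 TALE cofactors, which bind DNA together with Hox proteins, 2 could be tested in 2cell embryos, and Pbx2 was called higher, with means of 0.883 FPKM in KO and 0.344 FPKM in Het (adjusted p = 0.0181). Of 10 LIM domain cofactors, 6 were tested and Lmo4 was called higher, at 0.371 against 0.110 FPKM (adjusted p = 0.00443). It was called higher in KO oocytes too (adjusted p = 0.00254). No Het oocyte library reached 0.1 FPKM for Lmo4 (highest 0.0760), so its direction there was fixed by the filter. No gene passed among the Eya and Dach partners of sine oculis factors (1 tested of 4 in the table) or the Groucho corepressors (2 of 4).

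Of 18 upstream regulators of Hox genes in the table, 13 were tested in 2cell embryos, 3 were called higher and 2 lower, where 8.53% and 9.54% of all genes tested were. Kdm6b, which removes the Polycomb mark from histone H3, had means of 4.26 FPKM in KO and 1.32 FPKM in Het (adjusted p = 0.00393) and was also called higher in KO oocytes (adjusted p = 0.0267). Kmt2b, a histone methyltransferase, was called higher at 1.04 against 0.483 FPKM and Gdf11, a secreted signal of axial patterning, at 0.647 against 0.257 FPKM (adjusted p = 0.00604 and 0.0484). Bmi1 and Rnf2, components of Polycomb repressive complex 1, were called lower, at 33.7 against 49.1 FPKM and 1.82 against 3.13 FPKM (adjusted p = 0.00735 and 0.00446). The part of these genes in the homeobox differences was not tested.

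Other developmental homeobox genes outside the rule numbered 66 in the table. Of 31 tested in 2cell embryos, 13 were called higher and 1 lower, where 8.53% and 9.54% of all genes were, with a median difference of 0.74 on the log2 scale, against 1.01 for the 42 genes of the rule and -0.00380 for all genes tested. Neither these 31 genes nor the other lists were split by the libraries that passed the filter, so calls may include ones it favoured. Emx2, a cortical patterning factor, had means of 0.728 FPKM in KO and 0.106 FPKM in Het (adjusted p = 0.00116) and was called higher in oocytes too (adjusted p = 7.96e-05). Hesx1, a pituitary and forebrain repressor, was the gene called lower, at 0.588 against 2.38 FPKM (adjusted p = 0.00239). Lhx8, Nobox and Sebox, which work in the oocyte, gave no call at the 2cell stage, and Sebox was called lower in KO oocytes, at 12.4 against 20.6 FPKM (adjusted p = 0.00980).

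Of 195 olfactory receptor genes, another group of tissue-restricted genes, 38 were tested in 2cell embryos, of which 3 were called higher and 2 lower, beside 8.53% and 9.54% of all genes, with a median difference of 0.22 on the log2 scale. Of 8 keratin-associated protein genes, 1 was tested and called lower. Nr5a2 and Tnfaip6, 2 of the 3 cumulus and granulosa markers tested, were called lower in KO 2cell embryos, and the list summed to 0.706 to 1.09 FPKM in KO and 1.01 to 1.40 FPKM in Het. Of the 4 tested between stages in Het, 3 were called higher in 2cell embryos and 1 lower, where 38.2% and 28.2% of all genes were. Whether these genes mark cumulus cells in embryos was not tested. Haemoglobin genes, 2 of the 6 red blood cell markers listed, summed to 46.2 to 95.9 FPKM in KO and 54.8 to 146 FPKM in Het, and markers of leukocytes and sperm to at most 1.31 FPKM in any library. Markers of the 2cell stage overlapped, at 401 to 546 FPKM in KO and 398 to 605 FPKM in Het, with Zscan4d called lower in KO (adjusted p = 0.0402). Zscan4c and Zscan4d were called higher in KO oocytes, and among oocyte markers Mos was called lower there and Oosp1 in KO 2cell embryos. The part of these markers in the homeobox differences was not tested.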

How the data were processed

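MII oocytes and 2cell embryos of Het and KO females were profiled by RNA-seq (SMART-seq v4, paired-end) in 19 libraries. Per the labels, the authors used Trim Galore 0.4.1 and HISAT2 2.0.5 with GRCm38, and the methods name SeqMonk for counting. The table the authors deposited holds FPKM per gene and library, although its name speaks of raw counts. Only 0.00203% of its values are whole numbers above 0. No count test was therefore run. Depth was estimated from the steps between the low FPKM values of genes with 1 transcript, at a tolerance of 0.05 of a fragment. At the depth chosen, 42.4% to 49.1% of those values were whole, where 10% would be by chance, so the depths are estimates only.

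Libraries were scaled by trimmed means (the outer 30% of log ratios and 5% of expression levels were trimmed), and genes were kept at 0.1 FPKM in at least 5 MII libraries or 4 libraries of the 2cell and 19-library fits. Values were tested as log2(FPKM + 0.1) with limma 3.58.1 (trend, empirical Bayes) in R 4.3.3, with Benjamini-Hochberg adjustment over all genes tested. Fold changes on this scale understate the change of low genes. A gene was called at an adjusted p below 0.05 and a fold above 1.5. Genotypes were compared within each stage, and stages and the interaction in 1 fit of the 19 libraries with 4 group means. Cpeb3 alone was tested by an exact permutation test. The scripts were tested on simulated data, with changes planted only in genes well above the filter. Of changes of 1 on the log2 scale, 75.5% were recovered in the MII simulation and 48.5% in the 2cell simulation. Of changes of 2, 96.1% and 90.9% were, with 4 and 11 false calls. Lower genes were not covered. Python 3.11.15, pandas 2.3.3, numpy 2.4.6 and matplotlib 3.10.9 were used otherwise, and promoters came from RefSeq.

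The 72 genes and the gene lists were chosen with earlier results of these data known. Values of 2 of the 72 genes are not reported here, though the counts and sums include them. Named were the other genes called between genotypes, the 10 with the largest stage change in Het, the highest gene of each family, genes called for the interaction, and up to 4 genes of each other list. Relatives of these genes, and the genes behind counts of 5 or fewer, were added after their values were seen. The alternatives tried were other scalings, filters and constants, no fold threshold, a GC correction, a replicate block, other sets of libraries in the fit and each library left out.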

Additional observations from a re-analysis of the deposited data

Results flagged for a closer look

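Of 155 groups of 4 or 5 libraries examined, over family sums and named genes, 14 had a library whose gap to the nearest other was large for the range of its group by Dixon's criterion, where chance gives about 1 in 20. Het MII E was high in the sum of all 72 genes at 15.9 FPKM (next 12.9), in that of all Hox genes at 14.8 FPKM and in that of Hoxa at 13.8 FPKM, all of which hold Hoxa7, at 13.2 FPKM (next 10.8). KO 2cell C was high in the Hoxd sum at 14.4 FPKM and in Hoxd10 at 7.83 FPKM (next 4.48). KO 2cell D was low in the Hoxc sum at 0.701 FPKM (next 1.02), and KO MII E was high in Hoxd13 at 1.85 FPKM (next 0.900). The other values stand near 0, where few fragments set them: Lhx1 at 0.00659 and Irx3 at 0.0499 FPKM in Het MII B, Hoxd1 at 0.0781 FPKM in Het MII C, Nkx6-1 at 0.00745 FPKM in Het MII E, Hoxd10 at 0.0148 FPKM in KO MII C and Hoxc10 at 0.0280 FPKM in KO MII D.

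The difference between genotypes itself differed between oocytes and 2cell embryos, by the interaction test of limma, for 10 genes. Of these, Hoxa9, Hoxc10, Hoxc13 and Irx5 passed the filter only with the KO 2cell libraries, where they are high, and Hoxa9 and Lhx2 lost the call in 16 and 13 of the 19 fits without a library. On the log2 scale the difference in 2cell embryos exceeded that in oocytes by 2.60 for Six2, 2.58 for Hoxd10, 1.90 for Irx3, 1.66 for Irx5, 1.60 for Lhx1, 1.39 for Hoxd1, 1.36 for Hoxc10, 1.31 for Hoxa9, 1.28 for Hoxc13 and 0.80 for Lhx2.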

How the results depend on the processing

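The 18 calls in 2cell embryos and the 2 in MII oocytes were made under each of the 4 scalings, and no gene named in the genotype comparisons reversed a call under any alternative. Of the genes tested, Six4 in 2cell embryos and Lhx2 in oocytes changed sign under a scaling, without a call. Between stages in Het, 8 genes changed sign under a scaling, of which Hoxa10 had been called, and in KO 3 did, none of them called. In MII oocytes, with the shares of all genes called higher and lower in parentheses, no gene was called (0) with all 19 libraries in 1 fit (3.42% and 4.78%), with a filter of 1 FPKM (7.37% and 10.1%), with no filter (1.79% and 2.71%) or with a constant of 1 (1.48% and 3.09%), and 1 was called with the GC correction (4.96% and 6.42%). In 2cell embryos, with the share of all genes called higher in parentheses, 29 of 44 were called with all 19 libraries in 1 fit (10.9%), 28 of 42 when scaled to the sum of FPKM (17.3%), 9 of 42 with a constant of 1 (3.37%) and 7 of 12 with a filter of 1 FPKM (13.6%). Between stages, with the shares of all genes called higher and lower, in Het 12 of 12 were called with a filter of 1 FPKM (41.3% and 35.9%), 18 of 21 in a fit of the Het libraries alone (38.5% and 30.9%) and 9 of 44 with a constant of 1 (18.9% and 14.6%), and in KO, 12 of 12 with that filter (41.0% and 34.0%) and 17 of 44 with that constant (19.1% and 14.3%). For the interaction, 5 of 12 were called with the filter of 1 FPKM (5.29%) and 16 of 44 when scaled to the sum of FPKM (5.09%). The filter of 1 FPKM tests fewer genes. The cause of the other changes was not tested. Without Hoxa7, the ratio of summed FPKM in MII oocytes was 1.69, against 1.31 with it.

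Scaling to the sum of FPKM moved the median of all genes to 0.26 in 2cell embryos and 0.15 in oocytes on the log2 scale, and the shares of all genes called higher and lower to 17.3% and 4.06%, and 10.6% and 4.53%. Between stages in Het these shares were 27.9% and 39.5% with quantile scaling, and in KO 27.8% and 39.2%.

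With single libraries left out, 0 to 2 genes were called in MII oocytes, 15 to 20 in 2cell embryos, 27 to 32 between stages in Het, 36 to 40 in KO and 8 to 13 for the interaction. In these fits 3.71% to 6.33% of all genes were called higher in MII oocytes, 5.47% to 9.07% in 2cell embryos, 37.4% to 38.7% between stages in Het, 36.4% to 38.5% in KO and 2.44% to 4.21% for the interaction. The ratio of summed FPKM ranged from 1.25 to 1.38 for oocytes and from 2.21 to 2.49 at the 2cell stage. In MII oocytes no gene was called (0) without Het A, Het B, Het D, KO C or KO E, and 1 without Het E, KO A or KO B.

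The labels give groups the same replicate letters. Between Het and KO, deviations of same-lettered libraries correlated at -0.175 to 0.120 among the MII libraries and at -0.0690 to 0.0364 at the 2cell stage. The labels do not say what a letter stands for, and these few values cannot settle it. Not every library correlated best with its own letter. With the letter as a replicate block, 1 gene was called in MII oocytes, where 3.37% of all genes were called higher and 4.47% lower, and 9 in 2cell embryos, all 9 among the 18, where 1.27% were called higher and 1.35% lower. With the replicate block and the GC correction, 0 were called in 2cell embryos, as were 0 of all genes, and in MII oocytes Hoxd13 was called higher and Nkx6-2 lower, by -0.70 on the log2 scale (adjusted p = 0.0439), where 3.87% and 5.04% of all genes were.

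Most homeobox values stand below 1 FPKM, and 30 genes in 2cell embryos and 64 in oocytes did not pass the filter of 0.1 FPKM. With no filter, 72 were tested in 2cell embryos and 56 in oocytes.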
